A study of Mus musculus with 20 samples.

Results

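A divergent promoter serves a pair of genes that are read away from each other, 1 from each DNA strand. Among the ATAC-seq peaks of mouse ES cells, a peak was taken as a divergent protein-coding promoter when at most 1000 bp (0 if inside) separated it from a TSS of a plus-strand protein-coding gene and also from a TSS of a different gene on the minus strand. By this rule 1333 of 102373 listed peaks (1.30%) were divergent promoters, which is 7.41% (95% Wilson interval 7.03 to 7.80) of the 17998 peaks within 1000 bp of any protein-coding TSS. The other 16665 promoter peaks had protein-coding TSS on 1 strand only and are called single-strand promoter peaks. The rule used positions alone and no measured level.

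The peaks came from ZHBTc4 cells, a mouse ES line in which dox turns off the endogenous *Pou5f1* gene (encoding OCT4) through a Tet-Off promoter. All cells carried YPet-MD, a fluorescent reporter fused to a mitotic degron (MD), and a lentiviral SNAP-tagged OCT4 driven by a PGK promoter, fused either to MD, which is degraded at the M-G1 transition (MD-OCT4), or to an inactive form of it (MD*-OCT4). Cells of each construct received dox for 40 h and were sorted by YPet-MD and Hoechst signal into 4 phases (early and late G1, S, and late S/G2) with 2 replicates each, giving the 16 libraries whose peaks were merged into the list. A further 4 libraries of unsorted cells without dox, 2 per construct, did not enter it. The list gives the start and end of each merged peak and no value for any library, so no peak had a replicate error, and neither the constructs nor the cell cycle phases could be compared. A region open in a single library and a region open in all of them count alike. Merging can join overlapping peaks of different libraries into a wider peak, so widths and reaches are those of merged peaks. The sequencing depth is unknown, and the lack of a listed peak does not show that a TSS was closed.

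Many mammalian genes are arranged head to head, with their TSS a short distance apart and the DNA between them acting as the promoter of both. Such promoters are known for being rich in CpG dinucleotides, for mostly lacking a TATA box, and for serving housekeeping genes, among them genes of DNA repair and of mitochondria. Factors known to bind CpG-rich promoters include ETS proteins, NRF1, NFY, YY1 and SP1, which recognises the GC box.

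The divergent peaks belonged to 1239 gene pairs. Of these pairs, 1148 (92.7%, Wilson interval 91.1 to 94.0) had a single divergent peak, 88 had 2 and 3 had 3. In 1103 peaks (82.7%, interval 80.6 to 84.7) a TSS of both genes lay inside the peak, in 168 a TSS of 1 gene did, and in 62 (4.65%) no TSS did. The closest TSS of the pair were head to head in 1054 peaks (79.1%, interval 76.8 to 81.2), while in 279 peaks (20.9%) the genes overlapped at their 5′ ends, so that both TSS lay inside the partner gene. The median distance between head-to-head TSS was 125 bp (interval 115 to 135), with quartiles of 66.0 and 269 bp. Where the 5′ ends overlapped, the median overlap was 232 bp (interval 196 to 291).

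To see what such DNA looks like, the stretch between the TSS that lies outside every annotated exon is given for 5 well-known head-to-head pairs with TSS 40 to 300 bp apart. All stretches are on the plus strand of GRCm38, 5′ to 3′, and capitals mark matches to the ETS (CCGGAAGT), NRF1 (GCGCATGCG), NFY (GCCAATC), YY1 (AAGATGGCG), GC box (GGGGCGGG), CRE (TGACGTCA), E-box (CCACGTG), E2F (GGCGGGAA), ZNF143 (ACTACAATT) or OCT (ATGCAAAT) motif, or to the longer OCT4::SOX2 and CTCF motifs, on either strand. Brca1/Nbr1 (chr11:101551956-101552148, 193 bp) joins *Brca1*, a gene of homologous recombination, with the autophagy receptor *Nbr1*. Col4a4/Col4a3 (chr1:82586850-82586920, 71 bp) serves a pair of basement membrane collagens. Wrap53/Trp53 (chr11:69580256-69580358, 103 bp) lies upstream of *Trp53*, which encodes the tumor suppressor p53. Tsc2/Nthl1 (chr17:24632631-24632679, 49 bp) joins an inhibitor of mTOR signalling with a glycosylase of base excision repair. Rps18/Vps52 (chr17:33955678-33955811, 134 bp) joins a ribosomal protein gene with a gene of vesicle transport.
Brca1/Nbr1: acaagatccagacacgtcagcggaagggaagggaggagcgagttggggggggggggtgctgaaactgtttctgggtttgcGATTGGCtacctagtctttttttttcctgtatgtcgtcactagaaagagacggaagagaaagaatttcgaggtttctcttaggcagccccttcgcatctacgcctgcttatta
Col4a4/Col4a3: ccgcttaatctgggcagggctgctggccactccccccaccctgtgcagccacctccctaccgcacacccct
Wrap53/Trp53: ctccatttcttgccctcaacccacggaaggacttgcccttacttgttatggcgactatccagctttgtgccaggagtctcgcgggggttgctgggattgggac
Tsc2/Nthl1: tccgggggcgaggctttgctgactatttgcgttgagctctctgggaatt
Rps18/Vps52: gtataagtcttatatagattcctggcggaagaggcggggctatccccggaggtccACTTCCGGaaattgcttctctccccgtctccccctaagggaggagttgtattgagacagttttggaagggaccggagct

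The stretch of Brca1/Nbr1 held a single NFY match and that of Rps18/Vps52 a single ETS match, and the other 3 held no match. Base composition also varied between them. The GC content was 50.3% in Brca1/Nbr1, 53.7% in Rps18/Vps52, 55.1% in Tsc2/Nthl1, 56.3% in Wrap53/Trp53 and 69.0% in Col4a4/Col4a3. The CpG observed/expected ratio, which compares the number of CpG dinucleotides with that expected from the C and G content, was lowest in Col4a4/Col4a3 (0.29) and highest in Tsc2/Nthl1 (0.86).

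Stretches with several motifs were uncommon. Of 530 head-to-head peaks with TSS 40 to 300 bp apart and an exon-free stretch of at least 40 bp, 259 (48.9%) held none of 9 promoter factor motifs (all of those named above except OCT, OCT4::SOX2 and CTCF). A single kind was found in 216 (40.8%), 2 kinds in 47 (8.87%) and 3 kinds in 8 (1.51%). The following 5 had 3 kinds and, among those, the most matches and then the shortest stretch, a choice made after the values were seen. Zswim7/Ttc19 (chr11:62281376-62281472) held 3 overlapping GC boxes, a CRE and an NRF1 match. Erg28/Ttll5 (chr12:85824551-85824658) held an E2F match that overlaps a GC box, and an NFY match. Chpf/Tmem198 (chr1:75479372-75479531) held an ETS match, a CRE and a GC box, Gtf2f1/Gm17949 (chr17:57011289-57011468) an NRF1 match, an ETS match and a CRE, and Zcchc17/Snrnp40 (chr4:130359944-130360131) a GC box, a CRE and an ETS match.
Zswim7/Ttc19: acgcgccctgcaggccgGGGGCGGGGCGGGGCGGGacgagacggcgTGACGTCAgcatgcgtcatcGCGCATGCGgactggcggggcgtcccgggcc
Erg28/Ttll5: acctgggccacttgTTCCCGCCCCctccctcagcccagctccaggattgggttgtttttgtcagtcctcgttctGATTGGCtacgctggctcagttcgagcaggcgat
Chpf/Tmem198: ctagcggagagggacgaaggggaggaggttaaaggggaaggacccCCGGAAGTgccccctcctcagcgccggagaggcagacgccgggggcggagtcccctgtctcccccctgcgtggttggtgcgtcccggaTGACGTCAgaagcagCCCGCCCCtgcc
Gtf2f1/Gm17949: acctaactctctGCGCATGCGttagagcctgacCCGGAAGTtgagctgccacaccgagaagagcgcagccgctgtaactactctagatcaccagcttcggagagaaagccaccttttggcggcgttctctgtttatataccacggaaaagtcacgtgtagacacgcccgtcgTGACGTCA
Zcchc17/Snrnp40: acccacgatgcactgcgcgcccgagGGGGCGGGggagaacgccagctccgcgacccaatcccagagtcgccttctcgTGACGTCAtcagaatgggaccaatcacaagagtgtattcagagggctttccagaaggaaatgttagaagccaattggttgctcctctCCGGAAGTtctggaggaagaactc

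All 16 divergent pairs known from textbooks that are described here had a divergent peak, and in each of them 1 peak covered both TSS. Their peaks over both TSS ranged from 614 bp at Wrap53/Trp53 to 1908 bp at Col4a1/Col4a2. Among DNA repair genes, the peak at Atm/Npat (chr9:53536419-53537544) was 1126 bp wide with TSS 307 bp apart, that at Brca1/Nbr1 (chr11:101551603-101553165) was 1563 bp wide with TSS 270 bp apart, and that at Mcm4/Prkdc (chr16:15636938-15638138) was 1201 bp wide with TSS 489 bp apart. *Atm* and *Prkdc* encode kinases of the DNA damage response, *Npat* a regulator of histone genes and *Mcm4* a subunit of the replicative helicase.

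In metabolism and protein folding, Ppat/Paics, whose products act in purine synthesis, shared a peak of 1227 bp with 5′ ends that overlapped by 196 bp. Gart/Son, which includes a further gene of purine synthesis, had TSS 554 bp apart under 1 peak of 1722 bp. The mitochondrial chaperonin pair Hspd1/Hspe1 had TSS 108 bp apart under a peak of 1372 bp, and Surf1/Surf2 had TSS only 22 bp apart under a peak of 618 bp. The 5′ ends of Tk1/Afmid, of which *Tk1* encodes thymidine kinase, overlapped by 118 bp under a peak of 968 bp. Psmb9/Tap1, a pair of genes of antigen presentation, had TSS 38 bp apart under a peak of 1188 bp.

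The widest distance among these pairs was at Pdcd10/Serpini1, with TSS 691 bp apart under a peak of 1288 bp, and Ranbp1/Trmt2a had TSS 151 bp apart under a peak of 1141 bp. Collagen pairs differed in their peaks. Col4a1/Col4a2, with 5′ ends overlapping by 21 bp, had a peak of 1908 bp and a CpG observed/expected ratio of 0.72, whereas Col4a4/Col4a3 had a peak of 630 bp and a ratio of 0.49. Wrap53/Trp53 was the only pair of the 16 with 3 divergent peaks. The middle one (614 bp, chr11:69580173-69580786) covered both TSS, which are 104 bp apart, and the others were 534 bp and 806 bp wide on either side. The plot of peak extents at these pairs shows that most peaks ran past both TSS into both genes.

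**Figure D1:**
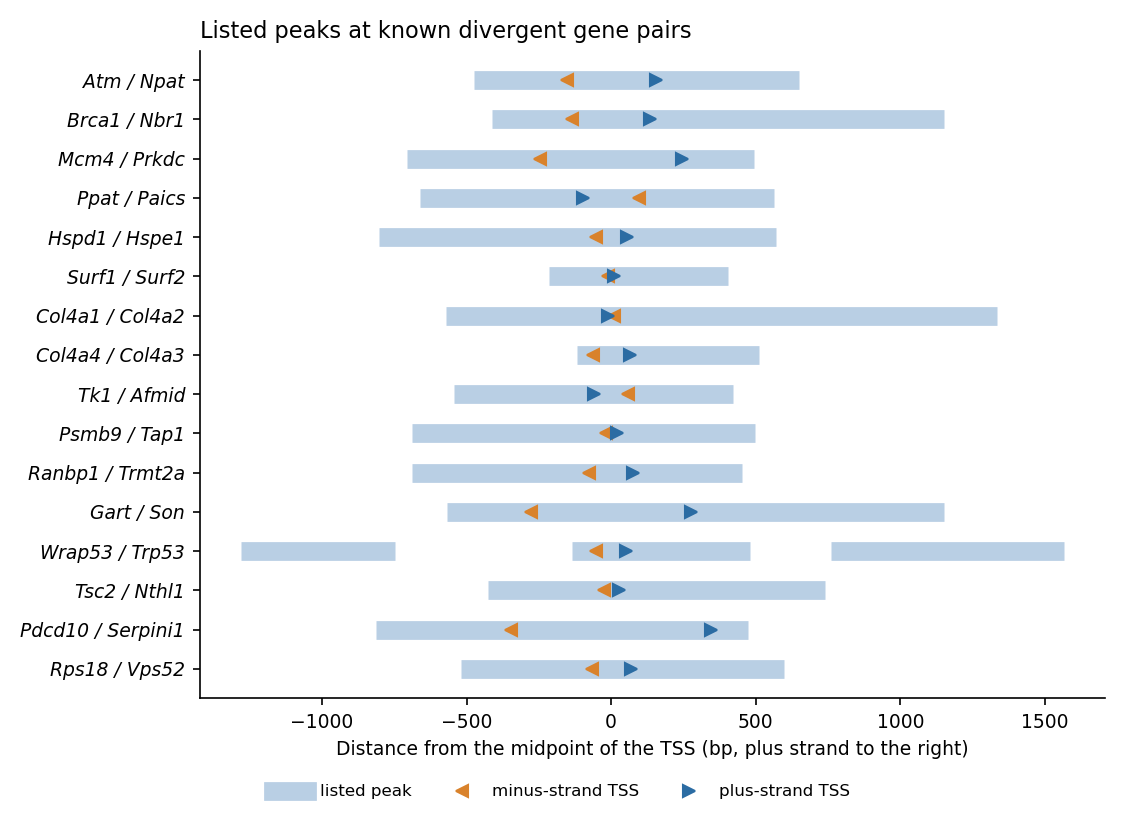
Listed peaks at 16 known divergent gene pairs. Bars give each listed peak in bp from the midpoint between the closest TSS of the pair, left arrowheads the minus-strand TSS and right arrowheads the plus-strand TSS; 1 peak covers both arrowheads in every pair, and Wrap53/Trp53 has 2 further peaks beside it.

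A rule that picks peaks by their distance to a pair of TSS favours wide peaks. How often a pair shares 1 listed peak was therefore also asked from the annotation, whether or not a peak was listed. The annotation held 1007 pairs of protein-coding genes whose closest TSS were head to head and at most 1000 bp apart. At 907 of them (90.1%, Wilson interval 88.1 to 91.8) 1 listed peak covered both TSS. At 39 pairs a peak covered 1 of the TSS, at 7 pairs separate peaks covered them, at 17 pairs a peak lay within 1000 bp without covering either, and at 37 pairs (3.67%, interval 2.68 to 5.02) no peak was listed within 1000 bp. These counts refer to the closest annotated TSS of a pair. They also depend on peak width. Single-strand peaks reached a median of 398 bp upstream of their TSS, so 1 peak can cover a near partner TSS by its width alone. Merging can also join peaks of different libraries. The part of either in these counts was not tested. Of the 37 pairs, 15 had a peak at another TSS of at least 1 of their genes, 2 of them (Actr1b/4933424G06Rik and Ngef/Neu2) a divergent peak at other TSS of both, and 22 had no peak within 1000 bp of any TSS of either gene.

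The share with 1 peak over both TSS fell with the distance between the TSS. It was 97.7% (interval 94.3 to 99.1) of 177 pairs up to 50 bp apart, 94.1% (90.4 to 96.4) of 253 pairs at 51 to 100 bp, 93.2% (89.6 to 95.6) of 279 pairs at 101 to 200 bp, 91.5% (85.0 to 95.3) of 117 pairs at 201 to 300 bp and 93.5% (86.6 to 97.0) of 93 pairs at 301 to 500 bp. It was 47.7% (37.6 to 58.0) of the 88 pairs at 501 to 1000 bp. The intervals of the first 5 classes overlap in part, and that of the last lies below all of them. Peaks of usual width can give such a fall, and the part of width was not tested. Among the 919 pairs up to 500 bp apart, 0 had separate peaks over the TSS (interval 0 to 0.416%). All 7 pairs with separate peaks were 501 to 1000 bp apart. Merging can join peaks that were separate in single libraries, so these counts hold for the merged list only. Pairs with overlapping 5′ ends shared 1 peak less often: 202 of 263 (76.8%, interval 71.3 to 81.5). This share was 92.9% (83.0 to 97.2) of 56 pairs that overlapped by up to 50 bp and 45.8% (33.7 to 58.3) of 59 pairs that overlapped by 501 to 1000 bp.

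**Figure D2:**
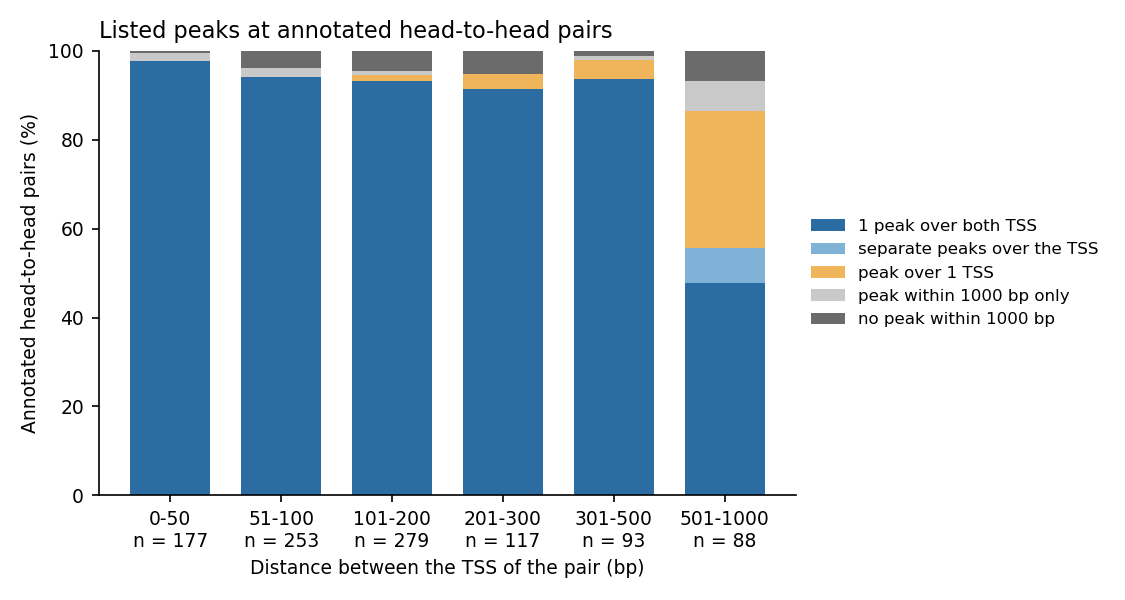
Listed peaks at the 1007 annotated head-to-head pairs, by the distance between the TSS. Bars give the percentage of pairs in each state, with the number of pairs under each bar; 1 peak covered both TSS in over 90% of pairs in each class up to 500 bp and in 47.7% of pairs 501 to 1000 bp apart.

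The 22 pairs without a peak at any TSS of either gene included some that are known for expression in specialised tissues. Abcg5/Abcg8 (TSS 110 bp apart) encodes the sterol transporter of liver and intestine, Plcz1/Capza3 (100 bp) serves sperm, and Smyd1/Cd8b1 (555 bp) pairs a gene of striated muscle with one of T cells. The histone pairs Hist1h2ap/Hist1h2br (236 bp) and Hist1h2bq/Hist1h2ao (268 bp) were also among them. Rnf151/Rps2 (53 bp), which holds the gene of a ribosomal protein, and Pecam1/Milr1 (598 bp), known from endothelial and mast cells, had no peak at their closest TSS but had peaks at another TSS of 1 gene and of both genes, respectively. These examples were chosen after their values were seen.

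Genes in head-to-head pairs had a listed promoter peak more often than genes outside pairs. A peak lay within 1000 bp of a TSS for 1930 of 1986 genes in a head-to-head pair (97.2%, Wilson interval 96.4 to 97.8) and for 12750 of 19391 genes without any opposite-strand partner within 1000 bp (65.8%, 65.1 to 66.4). CpG content moved with this difference. The 300 bp around the annotated 5′ end of the gene were CpG-rich (GC content above 50% and CpG observed/expected above 0.6) in 78.8% of the paired and 43.6% of the unpaired genes. Among genes with a CpG-rich start the shares were 99.6% (99.2 to 99.8) and 98.1% (97.8 to 98.4), and among the others they were 88.1% (84.7 to 90.9) of 421 paired genes and 40.7% (39.8 to 41.6) of 10932 unpaired genes. The gap between paired and unpaired genes was wider among genes without a CpG-rich start. A gene in a pair has its partner's TSS within 1000 bp, so a peak at the partner can count for both genes. The shares of paired genes are thus raised in part by the way of counting, with or without a CpG-rich start. How much of the gap this makes was not tested.

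Divergent promoter peaks were wider than single-strand ones. Median widths were 1171 bp (interval 1146 to 1188) and 959 bp (950 to 966), and the 84375 peaks over 1000 bp from a protein-coding TSS had a median of 358 bp. Restricted to peaks that held a TSS of each gene on the divergent side and a TSS on the single-strand side, the medians were 1210 bp (1189 to 1227; n = 1103) and 1064 bp (1056 to 1070; n = 12961), a difference of 146 bp in place of 212 bp. Peaks with 1 TSS inside had a median width of 906 bp, and those with none 354 bp. A peak has to be wide to hold a TSS of each gene, so these widths are in part set by the rule. Head-to-head peaks (1173 bp) and peaks at overlapping 5′ ends (1164 bp) had about the same median width, with intervals of 1141 to 1200 and 1120 to 1191 bp.

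Within the 890 head-to-head peaks that held both TSS of the closest pair, the width mostly rose with the distance between the TSS. The median width was 1103 bp (1072 to 1176) for TSS up to 50 bp apart, 1171 bp (1124 to 1223) at 51 to 100 bp and 1185 bp (1146 to 1233) at 101 to 200 bp. It was 1288 bp (1240 to 1361) at 201 to 300 bp, 1262 bp (1194 to 1321) at 301 to 500 bp and 1659 bp (1507 to 1752) above 500 bp. Across these peaks, which are no independent replicates and must be at least as wide as the distance, Pearson's r was 0.34 and Spearman's rho 0.26. After subtraction of the distance, the median width outside the TSS was 1082, 1108, 1051, 1052, 884 and 933 bp in the same classes.

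From the TSS into each of its genes, a head-to-head peak reached a median of 530 bp (518 to 542; 1780 TSS). A single-strand peak reached 613 bp (608 to 619; 12868 peaks with TSS of a single gene inside) into its gene and 398 bp (393 to 402) upstream. The reach of divergent peaks into their genes therefore differed from that of single-strand peaks by -83.5 bp, and was longer than the upstream reach of single-strand peaks. The centre of the peak lay between the TSS in 281 of the 890 head-to-head peaks (31.6%, interval 28.6 to 34.7), and its median distance from the midpoint of the TSS was 107 bp (98.0 to 114).

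The individual peaks at the ends of these ranges were as follows. The shortest TSS distances were at Nsa2/Gfm2 and Rnaseh2a/Prdx2, where a single base was the annotated start of both genes (0 bp), and at Bag4/Lsm1, Dcun1d3/Lyrm1 and Arfrp1/Zgpat (1 bp). Their peaks were 814, 1087, 1118, 985 and 1335 bp wide. *Nsa2* acts in ribosome biogenesis, *Rnaseh2a* encodes a subunit of RNase H2 and *Lsm1* acts in mRNA decay. At the other end, the longest distance was at Actrt3/Mynn (2126 bp), and distances were also long at Pdzd7/Sfxn3 (1786 bp), Gpr108/Trip10 (1766 bp) and Tmem69/Gpbp1l1 (1722 bp). None of these 4 peaks held a TSS of both genes, and the peak of Actrt3/Mynn (573 bp) held neither.

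The widest divergent peak was at Nr2e1/Ostm1 (2702 bp, chr10:42582004-42584705, TSS 203 bp apart), followed by Aamdc/Rsf1 (2547 bp), Zbtb25/Zbtb1 (2484 bp), Peg3/Usp29 (2475 bp) and Hist1h3c/Hist1h2bb (2460 bp). *Nr2e1* encodes a nuclear receptor of neural stem cells, and *Rsf1* a chromatin remodelling factor. The peak of the imprinted pair Peg3/Usp29 (chr7:6727256-6729730) was the only one of these that held no TSS. It lay 691 bp from the TSS of *Peg3*, was centred in an intron and had a YY1 match in its central 300 bp. The narrowest were at Hspb2/Cryab (145 bp), a pair of small heat shock protein genes, Hist1h2bf/Hist1h2ad (148 bp) and Kat5/Rnaseh2c (151 bp), and none of the 3 held both TSS.

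Most divergent peaks had exactly 1 gene on each strand, and 35 (2.63%) had 3 or 4 protein-coding gene entries within 1000 bp. The 2 with 4 were at Bola1/Hist2h2ab, which also took in *Hist2h2ac* and *Hist2h2be* under a peak of 2199 bp, and at Gon7/Ubr7, which took in the predicted genes *Gm20604* and *Gm28051* (992 bp). Chtf8/Utp4 (1985 bp), Fiz1/Zfp524 (1730 bp) and Bet1l/Ric8a (1675 bp) had 3. Just inside the limit of 1000 bp were the peaks of Jrkl/Ccdc82, whose farther TSS was 1000 bp away, and of Hist1h3a/Hist1h1a and Prune1/Mindy1, both at 998 bp. Just outside were peaks at Cyhr1/Kifc2 (1006 bp), Art5/Art1 (1008 bp) and Abhd8/Mrpl34 (1008 bp).

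To ask which genes sit at divergent promoters, 13 lists of genes were counted. Of all 21888 protein-coding genes, 2472 (11.3%, Wilson interval 10.9 to 11.7) belonged to the closest pair of a divergent peak. The highest shares were among complex I subunits and assembly factors of the respiratory chain (22 of 46, 47.8%, interval 34.1 to 61.9), mitochondrial ribosomal proteins (34 of 78, 43.6%, 33.1 to 54.6) and DNA repair genes (34 of 87, 39.1%, 29.5 to 49.6). Replication-dependent histone genes followed with 25 of 67 (37.3%, 26.7 to 49.3), the MCM, ORC and GINS genes of DNA replication with 7 of 20 (35.0%, 18.1 to 56.7) and mitochondrial import genes with 9 of 26 (34.6%, 19.4 to 53.8). Lower shares were found for aminoacyl-tRNA synthetases (10 of 37, 27.0%), proteasome subunits (9 of 40, 22.5%) and cytosolic ribosomal proteins (15 of 80, 18.8%, 11.7 to 28.7).

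At the low end were zinc finger genes named Zfp (31 of 394, 7.87%, 5.60 to 11.0), whose interval overlaps that of all genes. Among genes with a promoter peak the base is higher. Of all 15168 such genes, 16.3% (15.7 to 16.9) were at a divergent peak, and the Zfp genes lay below this (8.54%, 6.08 to 11.9). Cytosolic ribosomal proteins (19.2%, 12.0 to 29.3), proteasome subunits (22.5%, 12.3 to 37.5) and aminoacyl-tRNA synthetases (27.0%, 15.4 to 43.0) had intervals that hold the share of all such genes, while the 6 lists with higher shares stayed above it. None of 21 pluripotency genes was at a divergent peak (interval 0 to 15.5%), although 19 of them had a promoter peak. Among those 19 the interval was 0 to 16.8%, which holds the 16.3% of all genes with a promoter peak. Olfactory receptor genes (0 of 1093, 0 to 0.350%) and keratins (0 of 53, 0 to 6.76%) had none either, and only 33 and 11 of them had any promoter peak. Among these 33 and 11 genes the intervals were 0 to 10.4% and 0 to 25.9%, and only that of the keratins holds the 16.3%. The share depends on how genes are arranged in the genome as well as on open chromatin: 1986 of all genes, but 32 of the 87 DNA repair genes and 0 of the 21 pluripotency genes, were in an annotated head-to-head pair within 1000 bp.

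**Figure D3:**
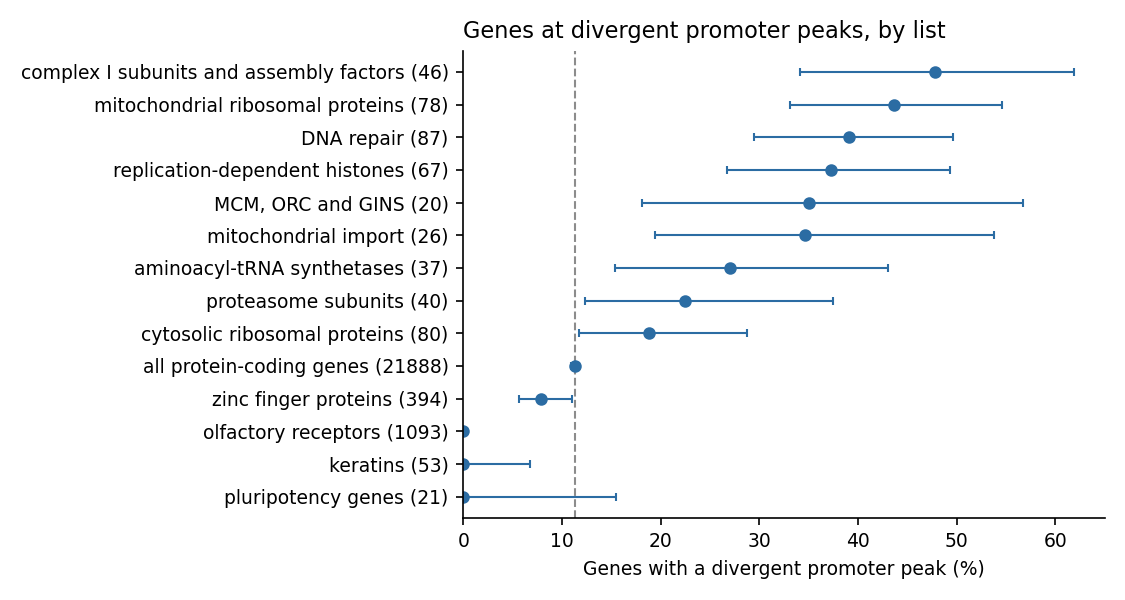
Share of the genes of each list that belong to the closest pair of a divergent promoter peak, in percent, with 95% Wilson intervals and the number of genes in parentheses. The dashed line marks the 11.3% of all protein-coding genes; complex I genes are highest at 47.8%, and pluripotency genes, olfactory receptors and keratins are at 0.

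Among DNA repair genes, the shortest distances were those of *Ddb1*, which recognises UV damage (with *Tkfc*, 19 bp, peak of 1028 bp), the ligase gene *Lig4* (with *Abhd13*, 21 bp, 919 bp), *Fancd2* of the Fanconi anaemia pathway (with *Emc3*, 30 bp, 980 bp) and the nucleotide excision repair gene *Xpc* (with *Lsm3*, 40 bp, 1079 bp). *Mrpl47* overlapped *Ndufb5* by 20 bp and *Mrpl36* overlapped *Ndufs6* by 29 bp, each pairing a mitochondrial ribosomal protein with a complex I subunit, under peaks of 1358 and 832 bp. *Mrpl18* overlapped *Tcp1*, a subunit of the cytosolic chaperonin, by 16 bp (1245 bp), and *Mrpl54* was 26 bp from *Apba3* (861 bp).

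Among complex I genes, *Ndufs1* was 3 bp from *Eef1b2*, an elongation factor gene (1245 bp), *Ndufb11* was 3 bp from *Rbm10* (1107 bp), and *Ndufa7* was 10 bp from the ribosomal protein gene *Rps28* (1162 bp). Further ribosomal protein genes were *Rpl12* (overlapping *Lrsam1* by 33 bp), *Rps27* (44 bp from *Rab13*) and *Rpl9* (53 bp from *Lias*, which acts in lipoic acid synthesis). Mitochondrial import genes included *Timm10b* (32 bp from *Arfip2*), *Timm29* (overlapping *Yipf2* by 50 bp), *Timm23* (51 bp from *Parg*) and *Timm17b* (88 bp from *Pqbp1*). Of the proteasome, *Psmc2* was 32 bp from *Dnajc2*, *Psmb9* 38 bp from *Tap1*, *Psma2* 75 bp from *Mrpl32* and *Psmc5* 75 bp from *Ftsj3*.

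In DNA replication, *Orc6* overlapped *Vps35* by 11 bp (1629 bp), *Orc3* was 13 bp from *Rars2* (1082 bp), *Orc1* was 118 bp from *Prpf38a* (1355 bp) and *Cdc45* overlapped *Ufd1* by 140 bp (1488 bp). *Rars2* is itself a mitochondrial arginyl-tRNA synthetase gene. The other synthetase genes with the shortest distances were *Hars2* and *Hars*, the mitochondrial and cytosolic histidyl-tRNA synthetases, which face each other at 26 bp (984 bp), and *Yars*, 33 bp from *S100pbp* (1552 bp). Zinc finger genes included *Zfp866* (overlapping *Atp13a1* by 15 bp), *Zfp740* (overlapping *Csad* by 15 bp) and the pair *Zfp646* and *Zfp668*, 16 bp apart under a peak of 2007 bp.

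In histone genes, 24 of the 25 faced another histone gene, and 18 of them were in pairs of an H2A gene and an H2B gene. Their median distance or overlap between TSS was 279 bp, against medians of 65.0 to 140 bp in the other 9 lists with members. *Hist2h2ab* was 156 bp from *Bola1*, *Hist1h2bg* 176 bp from *Hist1h2ae* under a peak of 696 bp, and *Hist1h2ad* 185 bp from *Hist1h2bf* under a peak of 1157 bp. Histone genes are near-identical copies, and how reads that fit several copies were placed is not given in the sources used here, so these peaks are uncertain.

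Divergent peaks were spread over all chromosomes except Y, which had only 1 protein-coding promoter peak in the list. They made up between 4.04% (interval 2.94 to 5.55) of protein-coding promoter peaks on chromosome 6 and 9.42% (7.47 to 11.8) on chromosome 13, which carries the largest histone cluster, and 5.93% (4.21 to 8.29) on chromosome X. Divergent peaks had another listed peak within 1000 bp less often than single-strand peaks (18.8%, interval 16.8 to 21.0, against 27.3%, 26.6 to 28.0), and their median gap to the nearest other peak was 5941 bp against 4509 bp. A TSS lay inside only 77.8% of single-strand peaks, and this comparison was not repeated for peaks with TSS inside.

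Divergent promoter peaks were richer in CpG than single-strand ones, but hardly in G and C. The median CpG observed/expected ratio was 0.749 (interval 0.740 to 0.760) against 0.669 (0.664 to 0.673), and 0.224 in peaks over 1000 bp from a protein-coding TSS. With TSS inside on either side, it was 0.766 (0.759 to 0.775) against 0.708 (0.704 to 0.712). Median GC content was 60.5% (60.1 to 60.8) against 59.6% (59.5 to 59.8), and 60.7% on either side with TSS inside. By the usual criteria of a CpG island (wider than 200 bp, GC content above 50% and CpG observed/expected above 0.6), 82.1% (79.9 to 84.0) of divergent and 58.9% (58.2 to 59.7) of single-strand peaks qualified, or 88.8% (86.8 to 90.5) and 69.7% (68.9 to 70.5) with TSS inside. Head-to-head peaks (82.4%) and peaks at overlapping 5′ ends (80.6%) did not differ beyond their intervals.

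**Figure D4:**
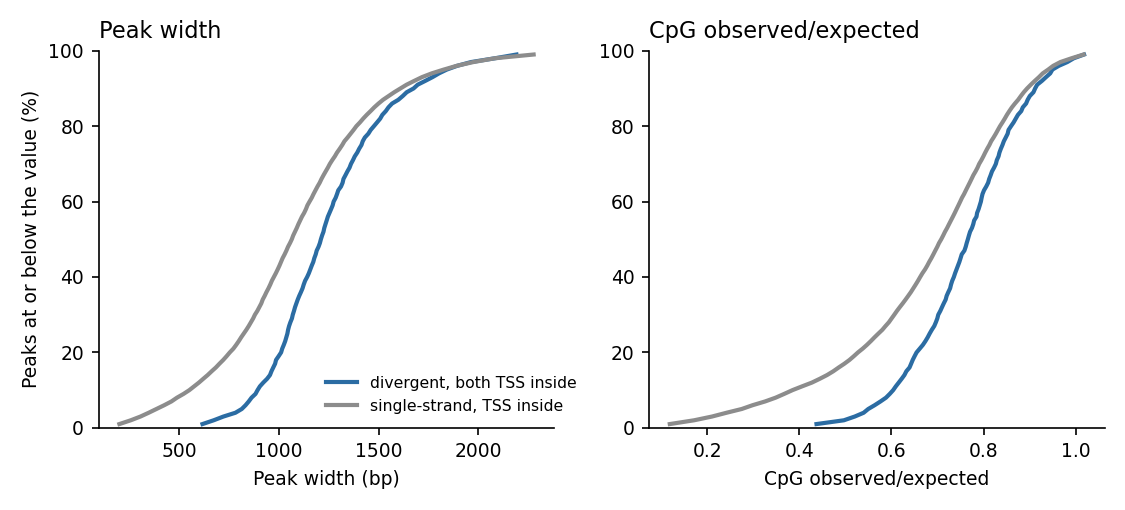
Cumulative distributions of peak width (bp, left) and CpG observed/expected (right) for 1103 divergent peaks that hold a TSS of both genes and 12961 single-strand peaks that hold a TSS, drawn from the first to the 99th percentile. The divergent curve lies to the right at the medians (1210 against 1064 bp, and 0.766 against 0.708) and the curves meet near the top.

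Promoters can also have a non-coding transcript on the opposite strand. Of the single-strand peaks, 2221 (13.3%, interval 12.8 to 13.9) had, within 1000 bp on the other strand, a TSS of a gene not annotated as protein-coding. These were close to divergent peaks in CpG content, with a median CpG observed/expected ratio of 0.745 (0.736 to 0.751), against 0.654 (0.649 to 0.659) in single-strand peaks without such a TSS. Their median width was 1129 bp (1111 to 1145) against 932 bp (922 to 941), and 75.9% (74.1 to 77.6) against 56.3% (55.5 to 57.1) met the CpG island criteria. Asking for a further TSS within 1000 bp favours wide peaks here too, and the comparison was not repeated for peaks with a TSS inside.

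To compare the DNA motifs of the classes, 12 consensus motifs were searched on both strands in the central 300 bp of each peak. A match is a stretch of letters and not a measured binding event. ETS matches were found in 133 of 1333 divergent peaks (9.98%, Wilson interval 8.48 to 11.7) and in 3.88% (3.59 to 4.18) of single-strand peaks, a ratio of 2.57 and the largest ratio with separate intervals. YY1 matches were found in 4.73% (3.71 to 6.0) against 2.06% (1.86 to 2.29), NRF1 in 3.08% (2.28 to 4.15) against 1.59% (1.41 to 1.79), CRE in 2.93% (2.15 to 3.97) against 1.64% (1.46 to 1.85), and NFY in 9.98% (8.48 to 11.7) against 5.86% (5.52 to 6.23). The GC box was the most frequent, in 26.9% (24.5 to 29.3) against 22.2% (21.6 to 22.9).

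In all 300-bp promoter windows of RefSeq genes (32817 windows from 250 bp before to 50 bp after the start, GRCm38.p6), the shares were 3.89% for ETS, 1.40% for YY1, 1.75% for NRF1, 1.79% for CRE, 6.82% for NFY and 16.5% for the GC box. The CTCF motif was less frequent in divergent peaks, in 2.1% (1.46 to 3.02) against 3.92% (3.63 to 4.22). For the E-box (3.75% against 4.34%), E2F (4.28% against 3.70%), ZNF143 (0.450% against 0.276%), OCT (1.20% against 0.816%) and OCT4::SOX2 motifs the intervals overlapped. At least 1 of the 9 promoter factor motifs was present in all but 658 divergent peaks (49.4% without any, interval 46.7 to 52.0), whereas 62.9% (62.1 to 63.6) of single-strand peaks had none.

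Part of this depends on where the window lies. When it was centred on the midpoint of the TSS in divergent peaks and on the TSS in single-strand peaks, the GC box was less frequent in divergent peaks (25.6%, 23.3 to 28.0, against 28.7%, 28.0 to 29.4), and its direction thus reversed. ETS (11.5% against 5.23%), YY1 (4.43% against 2.64%), NRF1 (3.60% against 2.21%), CRE (4.05% against 2.53%) and NFY (11.1% against 7.44%) stayed higher with separate intervals, ZNF143 became so (0.825% against 0.354%), and the CTCF intervals overlapped. The 100 bp directly upstream of a TSS were also searched, for head-to-head TSS more than 100 bp apart (968 TSS of 484 peaks) and single-strand peaks (12868 TSS). In 253 of the 484 peaks the TSS were 101 to 200 bp apart, so both windows can overlap and 1 match can count for both TSS. The intervals take the TSS for independent and are thus likely too narrow for divergent peaks. Only NFY (12.0%, 10.1 to 14.2, against 5.91%, 5.51 to 6.33) and YY1 (9 TSS with a match, 0.930%, 0.490 to 1.76, against 0.311%, 0.228 to 0.423) were higher with separate intervals. CTCF was lower (0.620%, 0.284 to 1.35, against 2.13%, 1.89 to 2.39). ETS matches were in 3.93% (2.87 to 5.34) against 3.16% (2.87 to 3.48), and GC boxes in 21.0% against 21.6%.

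**Figure D5:**
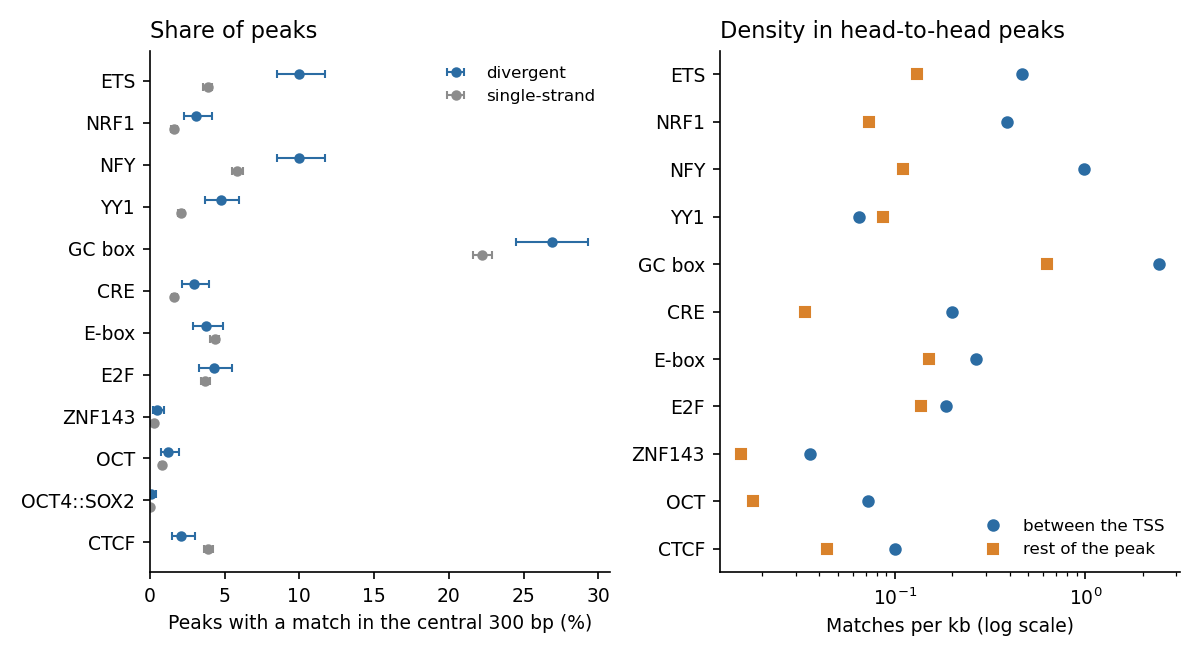
Motif matches. Left: percentage of divergent (n = 1333) and single-strand (n = 16665) promoter peaks with a match in the central 300 bp, with 95% Wilson intervals. Right: matches per kb, on a log scale, between the TSS and in the rest of the peak for 722 head-to-head peaks with TSS at least 50 bp apart. ETS matches were in 9.98% of divergent and 3.88% of single-strand peaks. Of the 11 motifs drawn on the right only YY1 was denser outside the TSS than between them, with an interval (6.36 to 21.0% of matches) that holds the 15.2% of bases between the TSS.

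In head-to-head peaks the motifs lay unevenly. For 722 peaks with both TSS inside and at least 50 bp apart, 15.2% of all bases lay between the TSS, but 61.4% (54.9 to 67.6) of 223 NFY matches, 51.9% (38.9 to 64.6) of 54 CRE matches and 48.6% (39.6 to 57.8) of 111 NRF1 matches did. GC boxes (40.9% of 831, 37.6 to 44.3) and ETS matches (39.2% of 166, 32.1 to 46.7) also lay there more often than their share of bases, and so did E-boxes (24.0% of 154, 18 to 31.4). The same held for OCT matches (41.7% of 24, 24.5 to 61.2) and CTCF matches (29.2% of 48, 18.2 to 43.2), so it was not limited to promoter factor motifs. Per kb, NFY matches were 8.89 times, CRE matches 6.01 times and NRF1 matches 5.28 times as dense between the TSS as in the rest of the peak. Of 76 YY1 matches, 9 (11.8%, 6.36 to 21.0) lay between the TSS, so that most lay downstream of a TSS. This interval holds the 15.2% of bases, as do those of E2F (19.7% of 132, 13.8 to 27.3) and ZNF143 (29.4% of 17, 13.3 to 53.1). Base composition was uneven as well: between the TSS the median GC content was 63.5% and the CpG observed/expected ratio 0.880, against 60.5% and 0.745 in the rest of the same peaks, and its part in the motif densities was not tested.

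The TATA box was rare at divergent promoters. TATAAA was found 20 to 40 bp upstream of 9 of 2506 TSS of divergent peaks (0.359%, interval 0.189 to 0.681) and of 154 of 15475 TSS of single-strand peaks (0.995%, 0.850 to 1.16). The 9 included the histone genes *Hist1h2bg*, *Hist1h3a* and *Hist1h1a*, named after their values were seen.

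The composite OCT4::SOX2 motif, at which OCT4 and SOX2 bind as a heterodimer, was rare in promoters of either class. Allowing 2 mismatches, a single divergent peak held a match (0.0750%, interval 0.0132 to 0.424), both in its central 300 bp and over its whole length, against 7 of 16665 single-strand peaks (0.0420%) in the central 300 bp and 30 (0.180%, 0.126 to 0.257) over the whole length. These intervals overlap, so a difference could not be shown with 1333 peaks. The match was at Ccdc47/Ddx42 (chr11:106216670-106216684, plus strand), 333 bp from the TSS of *Ccdc47* and 249 bp from that of *Ddx42*, between the TSS, which are 582 bp apart under a peak of 1380 bp. This match has 2 mismatches to the motif, the most that were allowed. The whole match is in capitals, and it is shown as the only one of its kind.
Ccdc47/Ddx42 match: CATTCTTATGTAAAT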

How the data were processed

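Per the study's methods and the submitters' processing notes, the authors aligned reads to GRCm38 with STAR 2.6.1c, removed duplicates with Picard, kept chromosomes 1 to 19, X and Y, called peaks with MACS2 2.1.1.20160309 and merged those of the dox-treated libraries with bedtools. The deposited file has 3 columns (chromosome, start, end) and no counts or scores, so depth and precision per sample are unknown, no test was run, and it was not established that it holds every merged peak or that input and blacklisted regions were removed. The methods also remove peaks over 5000 bp, but the list holds 7 of them, none divergent. TSS of 21888 protein-coding genes came from GENCODE M21, sequences from RefSeq GRCm38.p6. The bases of repeats were counted like all others. Coordinates count from 1. Motif matches were exact, with up to 2 mismatches for OCT4::SOX2 and 1 for CTCF. Intervals are 95% Wilson intervals (shares) or order-statistic intervals (medians). Both take peaks, genes, gene pairs, TSS or matches for independent and cover no error but that of counting. The named pairs are 16 of the 18 textbook pairs looked up, up to 4 genes a list by TSS distance, and the peaks at the ends of each range; some genes are not reported here. Members, lists and motifs were chosen with earlier results of these data known. Functions were tested on simulated data. Alternatives changed the distance limit, the TSS, the peaks, the window or the GC weighting, 1 at a time. Scripts ran in Python 3.11.15 (with scipy 1.17.1, numpy 2.4.6, pandas 2.3.3; plots with matplotlib 3.10.9).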

Additional observations from a re-analysis of the deposited data

How the results depend on the processing

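No paired analysis was possible because peaks merged over libraries carry no replicate values. The count of divergent peaks stayed within 1.5 times under all 7 alternatives, from 1103 with both TSS inside to 1314 with peaks up to 100 bp apart joined. The directions of the width, CpG and reach differences also held, while the GC difference vanished and the GC box turned from more to less frequent in divergent peaks around the TSS. The width difference of 212 bp was 184 bp at a limit of 500 bp, 146 bp with TSS inside the peaks and 163 bp among peaks of at least 300 bp. The GC difference of 0.83 percentage points was 0.38 at 500 bp and 0.00 both in the central 300 bp and with TSS inside. The CpG observed/expected difference of 0.080 was 0.092 in the central 300 bp and 0.058 with TSS inside. The share of head-to-head pairs with 1 peak over both TSS rose from 90.1% to 94.2% of pairs at most 300 bp apart. The difference in reach into the gene went from -83.5 to -127 bp with annotated gene 5′ ends. The number of motifs with a higher share, 6 of 12, was 8 over whole peaks, 6 with single-strand peaks weighted to the GC content of divergent peaks, and 6 around the TSS, where ZNF143 entered and the GC box left. For the motifs the effect of the window was measured directly. The cause of the other shifts was not tested.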
